A study of Mus musculus with 15 samples.

Results

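The insulin-like growth factor (IGF) axis was followed in mouse fibroblasts through 10 genes, the ligands Igf1 and Igf2, the receptors Igf1r and Igf2r, and the binding proteins Igfbp2, Igfbp3, Igfbp4, Igfbp5, Igfbp6 and Igfbp7. Every probe was taken whose gene name, or bracketed symbol in its description, in the scanner files was one of these. This gave 14 of the 41174 probes and 10 of the 33679 names on the array, and all 14 passed the filter on low signal. Igf1, Igf2, Igfbp4 and Igfbp5 each had 2 probes, which are numbered here.

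RNA came from 5 fibroblast sources, each hybridised to 3 two-colour arrays, 15 in all, with the fibroblast RNA in the Cy5 channel and Universal Mouse Reference RNA, a commercial RNA mixture, in the Cy3 channel of each. Classes are named in the labels, sensitive for NSF and TAF-tib6 (6 arrays) and resistant for TAF-tib42, TAF-tib48 and TAF-el4 (9 arrays). From the title, the words refer to how tumours respond to therapy that blocks VEGF, the growth factor of blood vessels. TAF stands, going by that title, for fibroblasts associated with tumours, and EL4 is a mouse T-cell lymphoma line. What NSF and the tib names mean, and the strain, age, passage and culture of the cells, are not given in the sources used here. Nor is it stated that replicate arrays hold RNA of separate cultures or animals, so a p-value between sources reflects spread among arrays that may be technical only.

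A value is the log2 ratio of a source to the reference, and a difference between sources is a log2 fold change. A difference was called at an adjusted p under 0.05 (limma, Benjamini-Hochberg over all 38520 probes tested). The median SD of a probe between arrays of a source was 0.053. Median Cy5 intensity per array was 173 to 283 over a background of 52 to 56, and the 14 probes had Cy5 signals well above background on all 15 arrays. Of 12 fibroblast markers, 10 were above the 75th percentile of Cy5 intensity on every array, while Fap, an activation marker of stromal fibroblasts, was below the median on all 15. The RNA is from bulk samples, in which fewer cells of a type and less RNA per cell cannot be told apart.

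IGF-I and IGF-II are secreted growth factors that signal through the tyrosine kinase receptor Igf1r to the PI3K-Akt and Ras-MAPK pathways. Igf2r, the mannose 6-phosphate receptor, takes up IGF-II for breakdown in lysosomes. The binding proteins hold the ligands in the fluid around cells, and proteases such as Pappa release them. Fibroblasts are a main source of these proteins in connective tissue and in tumour stroma.

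**Figure D1:**
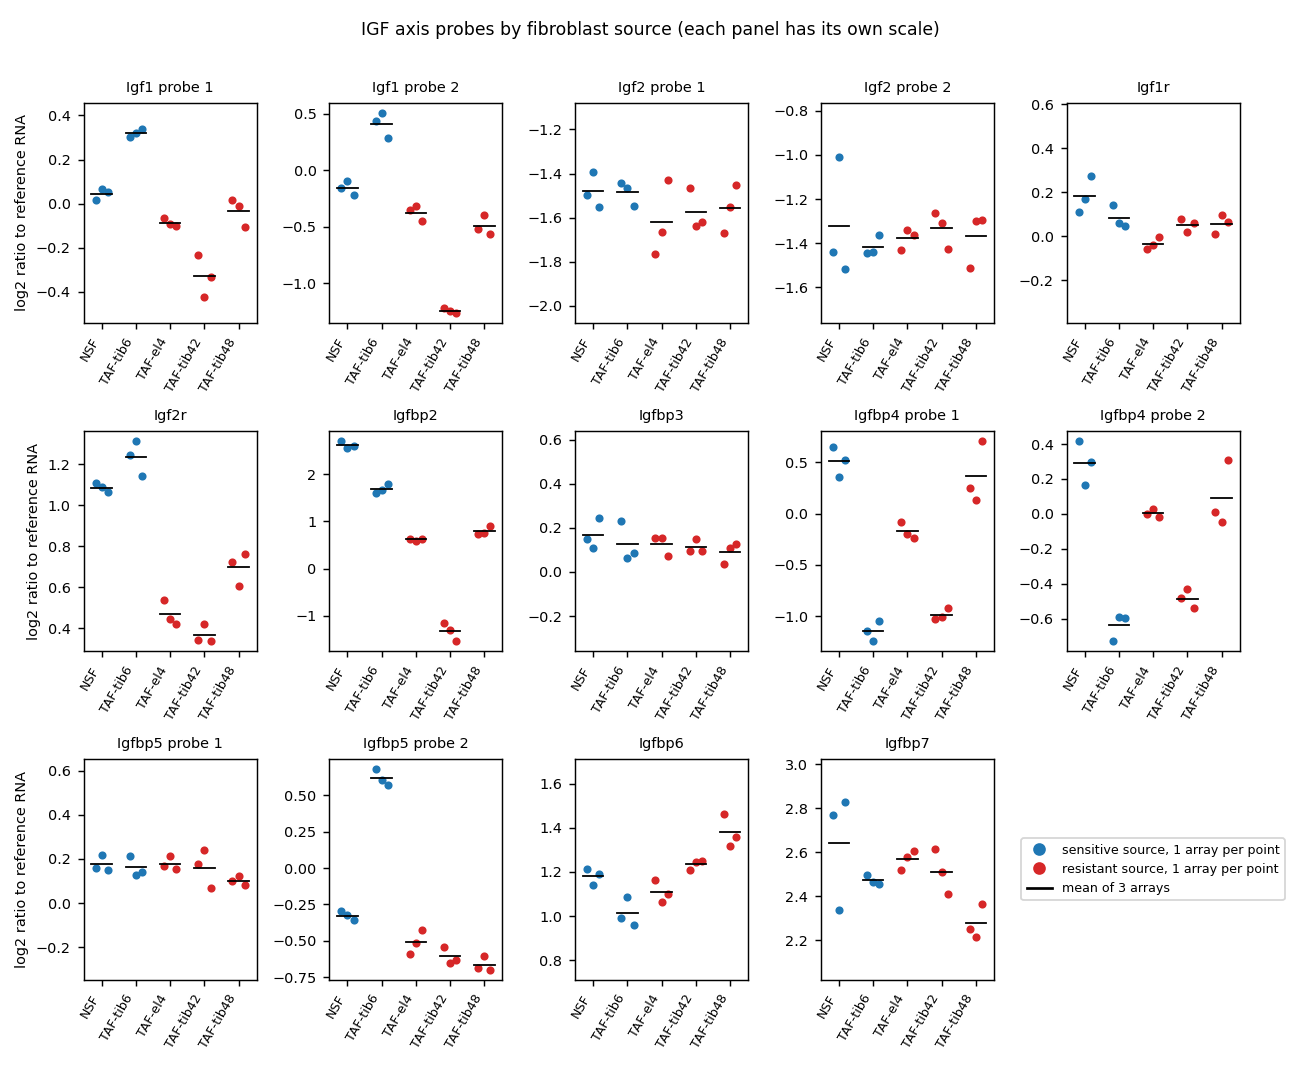
Log2 ratio to the reference (y axis, own scale in each panel) of each probe in the 5 sources (x axis). Points are single arrays, blue for sensitive and red for resistant sources, and lines are means of 3 arrays; Igfbp2 spans means of -1.34 to 2.63, whereas both Igf2 probes and Igfbp3 stay within 0.14 of log2 range.

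Of the 14 probes, 10 differed among the 5 sources by the F test (8 of the 10 genes), against 43.4% of all probes tested. Their highest and lowest source means were a median of 0.51 apart, against 0.16 for all probes. In 4 probes the means spanned at least 1, a doubling, against 2.14% of all probes. These were Igfbp2, Igf1 probe 2, Igfbp4 probe 1 and Igfbp5 probe 2. The members were chosen with earlier results of these data known, so the shares only describe the 14 probes and test nothing.

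The 250 bases before a RefSeq start (GRCm38.p6) are shown for Igfbp2, the member with the widest range, for its neighbour on the opposite strand of chromosome 1, Igfbp5, and for Igf2r, whose 3 resistant sources each lay below both sensitive sources. Capitals mark GGGCGG, the GC box, and CACGTG, the E box; TATAAA and TATATA, which can overlap each other, were searched as well, all on both strands. The Igfbp2 window is chr1:72824230-72824479 on the plus strand, the Igfbp5 window is chr1:72874866-72875115 on the minus strand, and the Igf2r window is chr17:12769707-12769956 on the minus strand.
Igfbp2: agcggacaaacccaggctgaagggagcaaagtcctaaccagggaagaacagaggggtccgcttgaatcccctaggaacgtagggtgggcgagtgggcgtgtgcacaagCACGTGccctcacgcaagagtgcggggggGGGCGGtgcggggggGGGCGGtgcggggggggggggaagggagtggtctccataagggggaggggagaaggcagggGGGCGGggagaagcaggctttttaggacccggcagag
Igfbp5: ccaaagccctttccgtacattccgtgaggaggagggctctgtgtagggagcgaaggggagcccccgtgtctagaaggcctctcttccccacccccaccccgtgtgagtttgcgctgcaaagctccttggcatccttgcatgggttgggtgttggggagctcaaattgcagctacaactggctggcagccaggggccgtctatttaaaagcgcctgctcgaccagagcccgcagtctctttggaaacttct
Igf2r: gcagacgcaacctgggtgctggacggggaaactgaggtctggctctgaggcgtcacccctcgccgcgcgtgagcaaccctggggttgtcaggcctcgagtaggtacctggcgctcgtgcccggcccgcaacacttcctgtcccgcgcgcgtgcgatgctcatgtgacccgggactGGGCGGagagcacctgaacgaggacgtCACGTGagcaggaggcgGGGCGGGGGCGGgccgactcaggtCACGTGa
The Igfbp2 window held 3 copies of GGGCGG, 113, 98 and 37 bases before the start, and 1 of CACGTG at 142. A second Igfbp2 window, chr1:72825137-72825386 before a start inside the first transcript's span and not shown, held 0 copies of the 4 motifs. The Igf2r window held 3 of GGGCGG, at 75, 31 and 25 bases, and 2 of CACGTG, at 48 and 7. In the Igfbp5 window none of the 4 motifs was found, which says only that these letters are not in it. Of 32851 windows of the same length, 32.7% held GGGCGG, 6.02% CACGTG, 12.4% TATAAA and 5.25% TATATA. A match is a description of the sequence and not a bound site.

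The ligand Igf1, made by fibroblasts and many other mesenchymal cells, was highest in TAF-tib6 and lowest in TAF-tib42. With probe 2 the arrays of the sensitive sources gave -0.15, -0.10 and -0.22 in NSF and 0.43, 0.51 and 0.29 in TAF-tib6. Those of the resistant sources gave -0.35, -0.32 and -0.45 in TAF-el4, -1.22, -1.24 and -1.26 in TAF-tib42, and -0.52, -0.39 and -0.56 in TAF-tib48. The arrays of each resistant source thus lay below those of both sensitive sources, and TAF-tib42 stood apart from TAF-el4 and TAF-tib48. Source means separated the classes this way in 12.8% of all probes. With the 5 sources as units the probe was not called (limma, adjusted p = 0.506). TAF-tib42 was 3.14-fold lower than TAF-tib6 (log2 difference -1.65, SE 0.0585, adjusted p = 1.7e-13) and 2.12-fold lower than NSF (-1.08). TAF-tib6 was also above NSF, by 0.56 (adjusted p = 1.8e-06). In the order of the 5 means, only the neighbours TAF-el4 and TAF-tib48 did not differ beyond their spread (0.12, adjusted p = 0.157). The smaller steps below NSF were -0.22 for TAF-el4 (adjusted p = 0.012) and -0.34 for TAF-tib48 (adjusted p = 2.6e-04). Slide packs are not named in the labels and were inferred here as runs of consecutive slide barcodes in the file headers. Blocking on the inferred slide pack gave these steps adjusted p-values of 0.0835 and 0.273, and the cause was not tested.

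Igf1 probe 1 gave the same sources as highest and lowest over a narrower range. Its arrays read 0.02, 0.07 and 0.05 in NSF, 0.30, 0.32 and 0.34 in TAF-tib6, -0.07, -0.09 and -0.10 in TAF-el4, -0.23, -0.42 and -0.33 in TAF-tib42, and 0.02, -0.01 and -0.11 in TAF-tib48. Here 1 array of TAF-tib48, at 0.02, reached into the range of NSF. TAF-tib42 was 1.57-fold lower than TAF-tib6 (-0.65, SE 0.0474, adjusted p = 6.0e-09), and neither TAF-el4 nor TAF-tib48 was called against NSF (-0.13, adjusted p = 0.0692, and -0.08, adjusted p = 0.249).

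Igf2, the ligand that is abundant before birth, was below the reference in every source, with no called difference between them. Probe 1 read -1.50, -1.39 and -1.55 in NSF, -1.44, -1.47 and -1.55 in TAF-tib6, -1.76, -1.67 and -1.43 in TAF-el4, -1.47, -1.64 and -1.62 in TAF-tib42, and -1.67, -1.55 and -1.45 in TAF-tib48. The ranges of all 5 sources overlapped, at 0.325 to 0.358 times the reference in their means (F test, adjusted p = 0.412). Its widest difference, TAF-el4 against NSF, was -0.14 with a 95% interval of -0.31 to 0.03. With the slide pack as a block the F test gave adjusted p = 0.0335. Probe 2 was dim, with a mean intensity at percentile 35.7 of all probes and Cy5 intensities of 90.9 to 113.6. It ranged from -1.52 to -1.01 over the 15 arrays, both ends in NSF (F test, adjusted p = 0.881). No pair of sources was called with either probe in the fit of all arrays. When 1 array was left out, probe 1 was called lower in TAF-el4 than in TAF-tib6 in 1 of 15 fits (-0.23, adjusted p = 0.0298). The same held for TAF-el4 against NSF, in 1 of 15 fits (-0.23, adjusted p = 0.0295).

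The signalling receptor Igf1r was close to the reference in all sources, with NSF the highest. Its arrays read 0.11, 0.17 and 0.27 in NSF, 0.14, 0.06 and 0.05 in TAF-tib6, -0.06, -0.04 and -0.00 in TAF-el4, 0.08, 0.02 and 0.06 in TAF-tib42, and 0.01, 0.09 and 0.06 in TAF-tib48. The whole range of means was 0.22 (F test, adjusted p = 0.0125). TAF-el4 was 0.22 below NSF (SE 0.0466, adjusted p = 0.00205), a 1.16-fold difference, and no neighbours in the order of means differed beyond their spread. The call of TAF-tib42 against NSF (-0.13, adjusted p = 0.0469) was lost in 9 of 15 fits that left out 1 array. With the Cy5 channel alone the F test of Igf1r gave adjusted p = 0.103, and without NSF array 3 it gave 0.0579.

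The clearance receptor Igf2r was lower in TAF-el4, TAF-tib42 and TAF-tib48 than in NSF and TAF-tib6, with all 6 of these pairs called. The sensitive arrays read 1.11, 1.09 and 1.06 in NSF and 1.24, 1.31 and 1.14 in TAF-tib6. The resistant arrays read 0.54, 0.45 and 0.42 in TAF-el4, 0.34, 0.42 and 0.34 in TAF-tib42, and 0.72, 0.60 and 0.76 in TAF-tib48. The highest resistant array, 0.76, lay below the lowest sensitive one, 1.06. Source means separated the classes this way in 12.8% of all probes. With the 5 sources as units Igf2r was not called (limma, adjusted p = 0.256). Against TAF-tib6 the differences were -0.76 in TAF-el4, -0.87 in TAF-tib42 and -0.54 in TAF-tib48, and against NSF they were -0.62, -0.72 and -0.39 (SE 0.0521, adjusted p between 3.8e-10 and 1.5e-05). These are folds of 1.31 to 1.82. The sensitive sources themselves did not differ beyond the threshold (0.15, adjusted p = 0.0800), except with log ratios scaled between arrays (0.38, adjusted p = 0.00205). TAF-tib48 against NSF was -0.29 once blocked on the slide pack (adjusted p = 0.147), and the other 5 pairs kept their call there.

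Igfbp2, which binds both ligands and is a major binding protein of serum and brain fluid, varied more among the sources than any other member. The sensitive arrays read 2.71, 2.56 and 2.60 in NSF and 1.60, 1.67 and 1.80 in TAF-tib6. The resistant arrays read 0.63, 0.59 and 0.63 in TAF-el4, -1.15, -1.31 and -1.55 in TAF-tib42, and 0.74, 0.76 and 0.90 in TAF-tib48. The order was NSF, TAF-tib6, TAF-tib48, TAF-el4 and TAF-tib42, with no overlap between resistant and sensitive arrays. Source means separated the classes this way in 12.8% of all probes. With the 5 sources as units Igfbp2 was not called (limma, adjusted p = 0.457). TAF-tib42 was 15.6-fold lower than NSF (-3.96, SE 0.0769) and 8.14-fold lower than TAF-tib6. TAF-el4 was 4.02-fold lower than NSF and 2.10-fold lower than TAF-tib6, and TAF-tib48 was 3.55-fold and 1.86-fold lower. Differences within the classes were also called, with TAF-tib6 1.91-fold below NSF and TAF-tib42 below TAF-el4 by 1.96 and below TAF-tib48 by 2.13. The pair TAF-el4 and TAF-tib48 alone was not called (-0.18, adjusted p = 0.109). All 9 called pairs of Igfbp2 kept their call under every alternative run.

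Igfbp3, the main IGF carrier of serum, gave nearly the same ratio everywhere with the probe that carries its name. That probe ranged from 0.04 to 0.24 over the 15 arrays, its source means spanned 0.08, and the F test gave adjusted p = 0.723. It was dim, with a mean intensity at percentile 29.2 of all probes. The widest difference, TAF-tib48 against NSF, was -0.08 with a 95% interval of -0.19 to 0.04.

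A cDNA clone probe whose description is Igfbp3 but whose name is not lies outside the rule, and was chosen after its values were seen. It read 2.05, 1.93 and 2.10 in NSF, 2.09, 2.0 and 1.91 in TAF-tib6, 0.49, 0.39 and 0.34 in TAF-el4, 0.28, 0.32 and 0.33 in TAF-tib42, and -0.20, -0.20 and 0.17 in TAF-tib48. The lowest sensitive array was at 1.91 and the highest resistant one at 0.49. Source means separated the classes this way in 12.8% of all probes. Against NSF it was 3.07-fold lower in TAF-el4, 3.28-fold lower in TAF-tib42 and 4.31-fold lower in TAF-tib48 (SE 0.0785 on the log2 scale), while TAF-tib6 and NSF were 0.03 apart (adjusted p = 0.879). With log ratios scaled between arrays TAF-tib6 was instead above NSF, by 0.37 (adjusted p = 0.0319). As both probes are described as Igfbp3, the level of that gene is uncertain here.

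Igfbp4, an inhibitor of IGF action that Pappa cleaves, did not follow the labelled classes: the sensitive sources were its highest and its lowest. With probe 1 the sensitive arrays read 0.65, 0.35 and 0.52 in NSF but -1.15, -1.25 and -1.05 in TAF-tib6. The resistant arrays read -0.08, -0.20 and -0.24 in TAF-el4, -1.03, -1.01 and -0.92 in TAF-tib42, and 0.25, 0.13 and 0.71 in TAF-tib48. TAF-tib6 was 3.15-fold below NSF (-1.66, SE 0.106, adjusted p = 3.4e-09), and TAF-tib42 was 2.82-fold below it. Against TAF-tib6, TAF-tib48 was 2.85-fold and TAF-el4 1.96-fold higher, whereas TAF-tib42 was not called (0.16, adjusted p = 0.301). NSF and TAF-tib48 were not called either (-0.15, adjusted p = 0.335), but they were without TAF-tib48 array 3 (-0.32, adjusted p = 0.00486). Array 3 of TAF-tib48, at 0.71, was the highest of all 15. TAF-el4 below TAF-tib48 (-0.54, adjusted p = 9.7e-04) gave adjusted p = 0.133 with the slide pack as a block.

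Igfbp4 probe 2 gave the same order with a narrower range. It read 0.42, 0.17 and 0.30 in NSF, -0.73, -0.59 and -0.59 in TAF-tib6, -0.00, 0.03 and -0.02 in TAF-el4, -0.48, -0.43 and -0.54 in TAF-tib42, and 0.01, -0.05 and 0.31 in TAF-tib48. TAF-tib6 and TAF-tib42 were thus again the low sources, 1.91-fold and 1.72-fold below NSF. TAF-el4 below NSF was called (-0.29, adjusted p = 0.0102), but not without NSF array 1 (adjusted p = 0.0712) or with the scanner's own log ratio (-0.47, adjusted p = 0.0515).

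Igfbp5, which binds to the extracellular matrix and is made by fibroblasts, was higher in TAF-tib6 than in every other source with probe 2. It read 0.68, 0.60 and 0.57 in TAF-tib6, -0.30, -0.32 and -0.36 in NSF, -0.59, -0.51 and -0.42 in TAF-el4, -0.54, -0.65 and -0.63 in TAF-tib42, and -0.69, -0.61 and -0.70 in TAF-tib48. Only TAF-tib6 was above the reference, and the resistant arrays all lay below NSF. TAF-tib6 was 1.92-fold above NSF (0.94, SE 0.0496, adjusted p = 2.5e-10) and 2.18-fold, 2.34-fold and 2.43-fold above TAF-el4, TAF-tib42 and TAF-tib48. The steps below NSF were smaller, at -0.18 for TAF-el4, -0.28 for TAF-tib42 and -0.34 for TAF-tib48. That of TAF-el4 (adjusted p = 0.0133) was lost without NSF array 1 (adjusted p = 0.0583) or TAF-el4 array 1 (adjusted p = 0.0913). Igfbp5 probe 1 ranged from 0.07 to 0.24 over the 15 arrays, with source means 0.08 apart (F test, adjusted p = 0.553), so the probes of Igfbp5 disagree.

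Igfbp6, which prefers IGF-II, was above the reference in all sources over a small range. It read 1.22, 1.14 and 1.19 in NSF, 0.99, 1.08 and 0.96 in TAF-tib6, 1.16, 1.06 and 1.1 in TAF-el4, 1.21, 1.24 and 1.25 in TAF-tib42, and 1.46, 1.32 and 1.36 in TAF-tib48. TAF-tib48 was 1.29-fold above TAF-tib6 (0.37, SE 0.0474, adjusted p = 1.1e-05). With log ratios scaled between arrays this was 0.18 (adjusted p = 0.261), and the step of TAF-tib6 below NSF (-0.17, adjusted p = 0.0259) turned to 0.04 (adjusted p = 0.873).

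Igfbp7, a low-affinity binding protein of vessel walls and stroma, was 4.85 to 6.25 times the reference in the source means. It read 2.77, 2.34 and 2.83 in NSF, 2.50, 2.47 and 2.46 in TAF-tib6, 2.52, 2.58 and 2.61 in TAF-el4, 2.61, 2.51 and 2.41 in TAF-tib42, and 2.25, 2.22 and 2.37 in TAF-tib48. NSF array 2 was the 1 array with a saturated Cy5 spot, so that its ratio is a lower bound, and it gave the lowest NSF ratio. TAF-tib48 was lowest, 0.37 below NSF (adjusted p = 0.00496), or 0.52 below without that array (adjusted p = 3.5e-06). Without it TAF-el4, TAF-tib42 and TAF-tib6 were also called below NSF, by -0.23 (adjusted p = 0.0109), -0.29 (adjusted p = 0.00190) and -0.32 (adjusted p = 0.00146). The F test of Igfbp7 (adjusted p = 0.0240) gave 0.216 with the slide pack as a block, 0.503 with scaling between arrays and 0.0804 with the scanner's own log ratio.

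**Figure D2:**
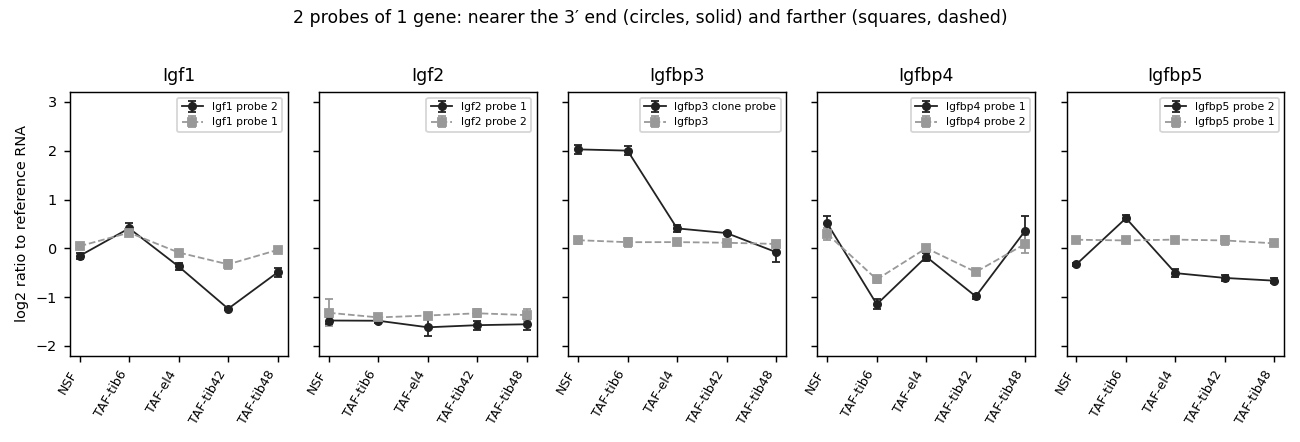
Source means of the log2 ratio ± SD of 3 arrays (y axis) in the 5 sources (x axis) for the paired probes of Igf1, Igf2, Igfbp3, Igfbp4 and Igfbp5. Circles with solid lines are the probe nearer the 3′ end and squares with dashed lines the probe farther from it; lines only guide the eye. The nearer probes of Igfbp3 (the clone) and Igfbp5 span 2.11 and 1.28, and the farther ones 0.08 each.

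For 5 genes the paired probes could be placed along the transcript from the positions in the files, which name no genome build. The probe nearer the 3′ end had the wider range of source means in each, but the Igfbp3 pair rests on the clone probe, chosen after its values were seen. For Igf1 on chromosome 10 the probes were 17263 bases apart and the ranges were 1.65 nearer the 3′ end and 0.65 farther from it. For Igfbp4 on chromosome 11 they were 3743 bases apart, with 1.66 and 0.93. Igfbp5 on chromosome 1 had 2537 bases between them, with 1.28 and 0.08, and Igfbp3 on chromosome 11 had 2825 bases to the clone probe, with 2.11 for the clone and 0.08. Igf2 on chromosome 7, with 414 bases, had ranges of 0.14 and 0.10, neither of them called. By mean intensity, the nearer probe was the brighter one for Igf2, Igfbp3 and Igfbp4, and the dimmer one for Igf1 and Igfbp5. Which transcripts each probe detects, and the part of brightness in the ranges, were not tested.

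**Figure D3:**
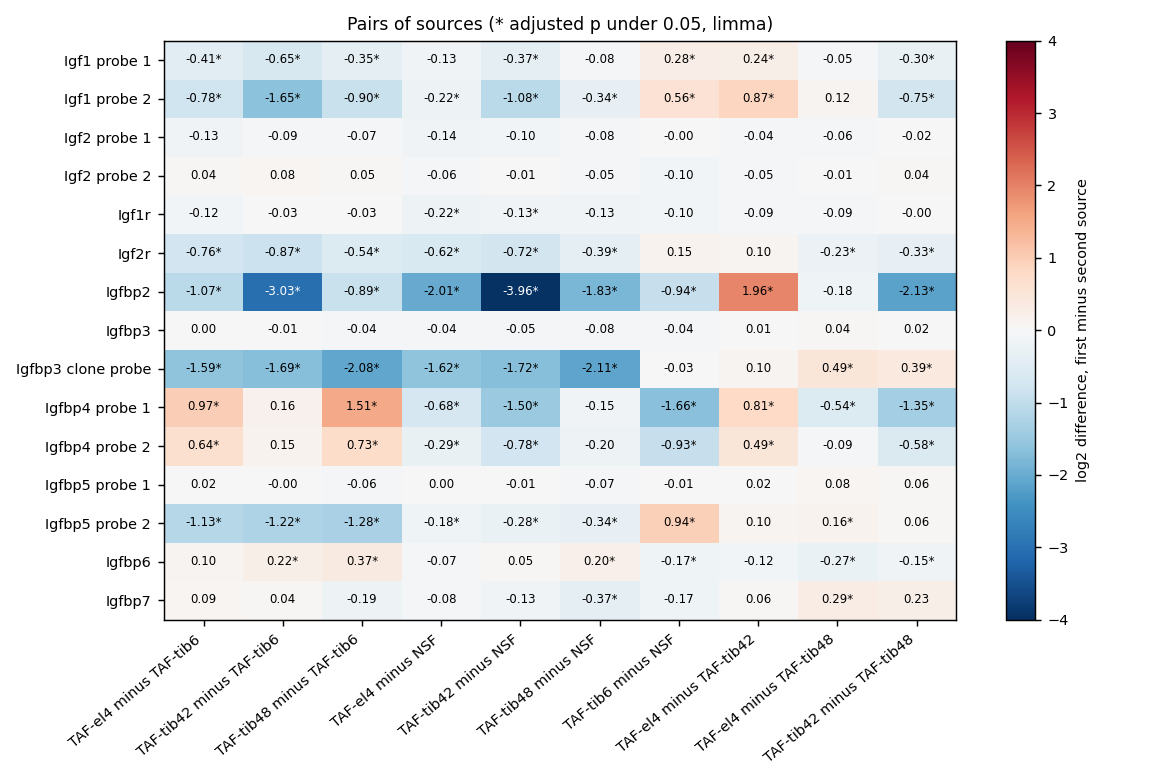
Log2 difference of each probe (rows, with the clone probe directly below Igfbp3) in the 10 pairs of sources (columns). Red is for higher and blue for lower in the source named first, and an asterisk marks an adjusted p under 0.05. All called differences of TAF-el4 and TAF-tib42 against NSF are negative, and Igfbp2 is called in 9 of 10 pairs.

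The called probes among the 14 were counted in each pair of sources, and beside each count stands the share of all 38520 probes called. In TAF-el4, 7 probes were called against NSF (17.4% of all probes), 0 of them higher (8.88%) and 7 lower (8.54%). In TAF-tib42, 8 were called against NSF (24.2%), 0 higher (11.2%) and 8 lower (13%). In TAF-tib48, 6 were called against NSF (26.5%), with Igfbp6 the 1 higher (12.5%) and Igf1 probe 2, Igf2r, Igfbp2, Igfbp5 probe 2 and Igfbp7 the 5 lower (14.1%). Blocked on the slide pack the count was 3, and Igfbp6 (0.20) was 0.073 with median centring (adjusted p = 0.524). Lower calls against NSF thus outnumbered higher ones in each resistant source. In TAF-tib6, 7 were called against NSF (11%), with 3 higher (4.41%), both Igf1 probes and Igfbp5 probe 2. The 4 lower there (6.63%) were Igfbp2, both Igfbp4 probes and Igfbp6.

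Against TAF-tib6, both Igf1 probes, Igf2r, Igfbp2 and Igfbp5 probe 2 made up the 5 lower calls in every resistant source. TAF-el4 had 7 calls against TAF-tib6 (20.6% of all probes), those 5 lower (8.95%) and 2 higher (11.6%), the Igfbp4 probes. TAF-tib42 had 6 (24.8%), 5 lower (12.6%) and 1 higher (12.2%), Igfbp6, at 0.22, or 0.11 with scaling between arrays (adjusted p = 0.507). TAF-tib48 had 8 (24.8%), 5 lower (12.5%) and 3 higher (12.3%), Igfbp6 and both Igfbp4 probes. Comparisons against 1 source share its arrays and are not independent of each other.

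Within the resistant class TAF-tib42 had the lowest mean for both Igf1 probes, Igf2r, Igfbp2 and both Igfbp4 probes. TAF-el4 was lowest for both Igf2 probes, Igf1r and Igfbp6, and TAF-tib48 for Igfbp3, both Igfbp5 probes and Igfbp7. TAF-el4 had 5 probes higher than TAF-tib42 (13.2%) and 0 lower (9.93%), 5 called in all (23.1%), which were both Igf1 probes, Igfbp2 and both Igfbp4 probes. TAF-tib42 had 7 probes lower than TAF-tib48 (7.66%) and 0 higher (6.5%), 7 called in all (14.2%), which were those 5 with Igf2r and Igfbp6. The call of Igfbp6 (-0.15, adjusted p = 0.0476) was lost in 12 of 15 fits that left out 1 array, and with scaling between arrays it was -0.07 (adjusted p = 0.812). TAF-el4 against TAF-tib48 had 5 calls (23.6%), 2 higher (13.5%) and 3 lower (10.1%), none of them by 2-fold. With the slide pack as a block that comparison had 1 call.

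**Figure D4:**
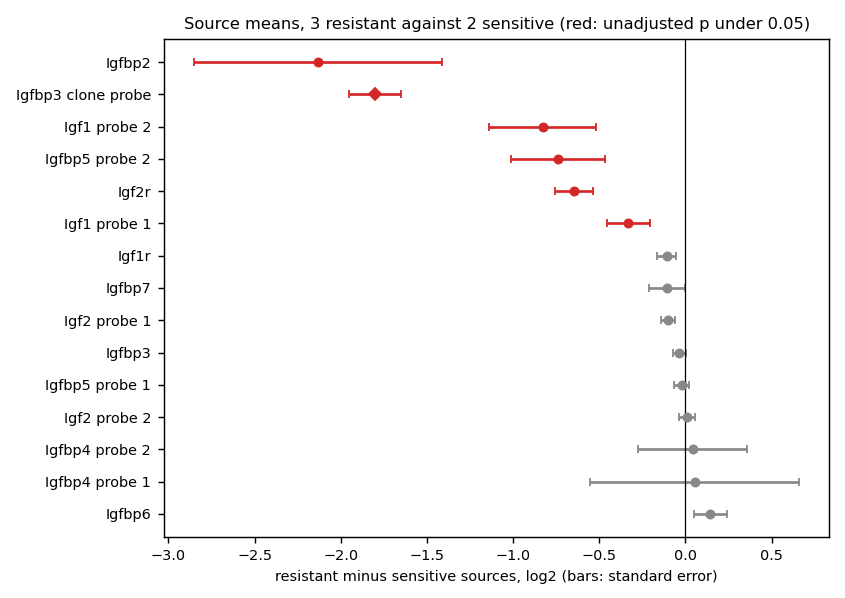
Mean of the 3 resistant sources minus mean of the 2 sensitive sources in log2 ratio (x axis) for each probe (y axis), with bars of 1 SE over source means; red marks an unadjusted p under 0.05 and the diamond is the clone probe. No probe had an adjusted p under 0.05, and the differences run from -2.13 in Igfbp2 to 0.14 in Igfbp6.

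With the 5 sources as units, none of the 14 probes was called between resistant and sensitive sources by limma, where 1 of 38520 probes (0.0026%) was. At an unadjusted p under 0.05 there were 5 of 14 (Igf1 probes 1 and 2, Igf2r, Igfbp2 and Igfbp5 probe 2), all lower in resistant sources, against 9.52% of all probes. With 3 against 2 sources, limma had 3 residual degrees of freedom before its pooling across probes. Each resistant mean lay below both sensitive means in 7 probes, those 5 with Igf2 probe 1 and Igf1r, against 12.8% of all probes. Each lay above both in 0 probes, against 14.3%. The median difference was -0.10 over the 14 probes and 0.00 over all.

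Igfbp2 had the largest difference, with resistant sources at 0.03 ± 1.18 (SD, n = 3 sources) and sensitive sources at 2.16 ± 0.66 (SD, n = 2 sources), 4.38-fold lower (-2.13, SE 0.720, adjusted p = 0.457). The spread among the resistant sources, from -1.34 to 0.80, was thus wide. The Igfbp2 difference was -1.45 without TAF-tib42 and -1.66 without NSF. It was -2.43 without TAF-el4, -2.52 without TAF-tib48 and -2.60 without TAF-tib6. Igf2r had the lowest p of the 14 probes, with 0.51 ± 0.17 against 1.16 ± 0.10 (-0.65, SE 0.110, adjusted p = 0.256), and ranked 251 of 38520 by p. The differences of Igf1 probe 2 (-0.83, SE 0.312, adjusted p = 0.506) and Igfbp5 probe 2 (-0.74, SE 0.273, adjusted p = 0.497) were -0.55 and -0.27 without TAF-tib6. That of Igf1 probe 2 was also -0.56 without TAF-tib42. The clone probe of Igfbp3 had 0.21 ± 0.26 against 2.02 ± 0.02, 3.48-fold lower (-1.80, SE 0.150, adjusted p = 0.256), and was 6th of all probes. Leaving out each source in turn gave it adjusted p-values of 0.0836 to 0.735.

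Markers of other cell types were above the 75th percentile of Cy5 intensity on every array in 1 of 8 macrophage, 1 of 8 lymphocyte, 0 of 6 endothelial, 0 of 6 pericyte, 3 of 6 epithelial, 0 of 5 adipocyte, 3 of 4 skeletal muscle, 0 of 3 melanocyte and 0 of 3 nerve genes. The macrophage and lymphocyte gene Ptprc was below the median on all 15. The summed Cy5 intensity of the 8 macrophage markers was 2703 to 3148 in resistant and 2559 to 2837 in sensitive arrays, that of the 6 endothelial markers 867 to 2156 and 955 to 1089, and that of the 5 adipocyte markers 1136 to 4108 and 2624 to 4243. The 12 fibroblast markers summed to 374120 to 397005 in resistant and 377163 to 409281 in sensitive arrays, and the ranges of both classes overlapped for each of the 10 lists. The macrophage genes Csf1r and Tyrobp, the pericyte gene Cspg4 and the muscle gene Myod1 were higher in all 3 resistant sources than in either sensitive source by their means, and the adipocyte genes Adipoq and Lep were lower. Emcn, an endothelial gene, had a mean of 2.04 in TAF-tib48 against 0.05 to 0.26 in the others, and the adipocyte gene Fabp4 had 0.45 there against 1.60 to 2.86. Of the 12 fibroblast markers, 9 were called by the F test, against 43.4% of all probes tested. Pdgfra, Lum, Dcn and Fbln2 had lower means in all resistant sources than in NSF and TAF-tib6, and Vim and S100a4 higher ones. Over all probes tested, each resistant mean lay below both sensitive means in 12.8% and above both in 14.3%. Those shares stand beside the marker genes of every list named here. The part of these markers in the IGF results was not tested.

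**Figure D5:**
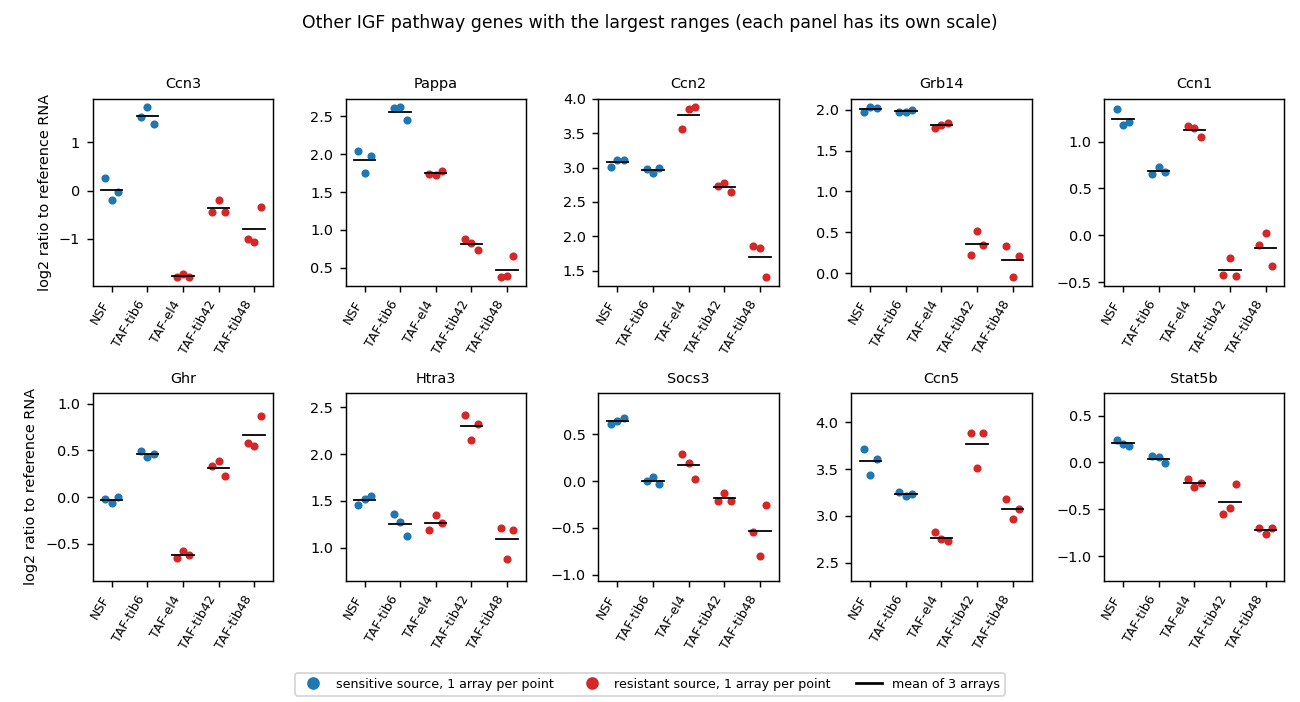
Log2 ratio to the reference (y axis, own scale in each panel) of 10 other IGF pathway genes in the 5 sources (x axis). Points are single arrays, blue for sensitive and red for resistant sources, and lines are means; Pappa and Grb14 are low in TAF-tib42 and TAF-tib48, and Htra3 is high in TAF-tib42.

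Of 66 other genes of the pathway (receptor adaptors, Akt and mTOR kinases, binding protein proteases, growth hormone signalling and the Ccn family of proteins with an IGF-binding-like domain), 62 were measured and tested. The F test called 40 of them, against 43.4% of all probes, and 8 had source means at least 1 apart, against 2.14%. Their median range was 0.29, against 0.16 for all probes tested. The list was chosen with earlier results of these data known. Each of its genes is represented by its brightest probe, while the shares cover all probes, dim ones included. These counts are therefore descriptive only. Of the 62, counts of called genes follow with the share of all probes called in that direction. Against NSF, 6 were higher (8.88%) and 15 lower (8.54%) in TAF-el4, and 3 (11.2%) and 17 (13%) in TAF-tib42. In TAF-tib48 they were 7 (12.5%) and 22 (14.1%), and in TAF-tib6 7 (4.41%) and 8 (6.63%). Against TAF-tib6, 9 were higher (11.6%) and 15 lower (8.95%) in TAF-el4, 6 (12.2%) and 18 (12.6%) in TAF-tib42, and 8 (12.3%) and 20 (12.5%) in TAF-tib48. Lower calls thus outnumbered higher ones in each resistant source against each sensitive one. Between resistant sources, 14 were higher (13.2%) and 9 lower (9.93%) in TAF-el4 than in TAF-tib42, and 17 (13.5%) and 11 (10.1%) in TAF-el4 than in TAF-tib48. For TAF-tib42 against TAF-tib48 they were 13 (6.5%) and 10 (7.66%). In 13 genes each resistant mean lay below both sensitive means, against 12.8% of all probes, and in 3 above, against 14.3%. Igfbp1, the liver binding protein, was dim (percentile 11.5 of intensity) and flat (range 0.12, adjusted p = 0.329).

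RNA of Pappa, the protease that cleaves Igfbp4, was highest in TAF-tib6, where Igfbp4 RNA was lowest. It was low in TAF-tib42, where Igfbp4 RNA was nearly as low. Cleavage acts on the Igfbp4 protein, which was not measured, so these RNA levels do not bear on it. Pappa read 1.93 ± 0.15 (SD, n = 3 arrays) in NSF, 2.56 ± 0.10 in TAF-tib6, 1.75 ± 0.03 in TAF-el4, 0.81 ± 0.07 in TAF-tib42 and 0.47 ± 0.16 in TAF-tib48. All arrays of TAF-tib42 and TAF-tib48 lay below those of the other 3 sources. TAF-tib48 was 2.09 below TAF-tib6 (adjusted p = 8.6e-13) and 1.45 below NSF (adjusted p = 6.4e-11), whereas TAF-el4 was not called against NSF (-0.18, adjusted p = 0.139). TAF-tib6 was above NSF by 0.63 (adjusted p = 1.5e-05), or by 0.44 once blocked on the slide pack (adjusted p = 0.363). A second Pappa probe gave the same order of sources over a range of 1.23. Htra3, another protease reported to act on binding proteins, was high in TAF-tib42 at 2.30 ± 0.14, against 1.09 to 1.51 in the other source means. Its second probe spanned only 0.31.

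Grb14, an adaptor that inhibits insulin receptor signalling, was at 2.01 ± 0.03 in NSF, 1.98 ± 0.02 in TAF-tib6 and 1.81 ± 0.03 in TAF-el4, but at 0.36 ± 0.15 in TAF-tib42 and 0.16 ± 0.20 in TAF-tib48 (SD, n = 3 arrays each). The low pair thus stood apart from the other 3 sources. TAF-tib48 was 1.84 below NSF (adjusted p = 2.1e-12) and TAF-tib42 1.65 below it (adjusted p = 1.0e-11), while TAF-el4 was not called against NSF (-0.20, adjusted p = 0.0993). Over resistant and sensitive sources Grb14 differed by -1.22 (adjusted p = 0.547). Without TAF-el4, the resistant source that was not low, it differed by -1.73 (adjusted p = 0.0391). It differed by -1.01 without TAF-tib42 (adjusted p = 0.765) and by -0.91 without TAF-tib48 (adjusted p = 0.834). Without NSF or TAF-tib6 the differences were -1.20 and -1.23. Leaving out the source that goes against the class pattern cannot show that Grb14 follows the classes.

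The matricellular Ccn genes took different orders. Ccn3 had means of 1.55 in TAF-tib6, 0.00 in NSF, -0.37 in TAF-tib42, -0.81 in TAF-tib48 and -1.78 in TAF-el4. Ccn2, connective tissue growth factor, was highest in TAF-el4 at 3.76 and lowest in TAF-tib48 at 1.70, a difference of 2.07 (adjusted p = 1.4e-11). Ccn1 was low in TAF-tib42 (-0.37) and TAF-tib48 (-0.14), against 0.69 to 1.25 in the other sources. Ccn5 spanned 1.0, from 2.77 in TAF-el4 to 3.76 in TAF-tib42, and TAF-tib6 below NSF (-0.36, adjusted p = 0.00853) turned to 0.30 with scaling between arrays (adjusted p = 0.589).

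On the growth hormone side, the receptor Ghr was lowest in TAF-el4 (-0.61 ± 0.04) and highest in TAF-tib48 (0.67 ± 0.17; SD, n = 3 arrays), a difference of -1.28 (adjusted p = 4.9e-11). In its other probes TAF-el4 was also lowest, over ranges of 0.85 and 0.93, and the highest source was TAF-tib42 in the first (0.18, with TAF-tib48 at 0.14) and TAF-tib48 in the second. Stat5b, a factor that relays growth hormone signals, was lower in all resistant sources than in either sensitive one, with means of -0.22 in TAF-el4, -0.42 in TAF-tib42 and -0.72 in TAF-tib48 against 0.21 in NSF and 0.04 in TAF-tib6. All 6 of those pairs were called, but a second Stat5b probe spanned 0.13 and did not pass the F test (adjusted p = 0.182). Socs3, a feedback inhibitor of cytokine signals, was highest in NSF at 0.64 and lowest in TAF-tib48 at -0.53, a difference of -1.18 (adjusted p = 1.2e-08).

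For the members whose brightest probe spanned at least 1, the most similar genes over the 15 arrays were sought among 15599 genes. For Igfbp2 these were Fundc1 (Pearson's r = 0.969) and Cpe, carboxypeptidase E (r = 0.965). For Igfbp4 probe 1 they were Pura (r = 0.911) and Aif1l (r = 0.910). Correlation takes no account of size, and these genes varied less. Source means spanned 0.58 in Fundc1 and 1.48 in Cpe, against 3.96 in Igfbp2. They spanned 0.28 in Pura and 0.69 in Aif1l, against 1.66 in Igfbp4 probe 1. The arrays share the reference RNA, and arrays of a source share their RNA origin, so these correlations describe the 5 sources and carry no p.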

How the data were processed

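Per the file headers, each deposited scanner file gives the mean signal intensity and local background of every spot in both dyes, with the software's log10 ratio of Cy5 to Cy3. The software is Agilent Feature Extraction 8.5.1.1 per the submitters' processing notes and the file headers, and 9.5 per a protocol label. The table of log2 ratios deposited by the authors is the log2 form of that ratio, with a slope of 1.0 against it on each array, and was used as an alternative.

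In R 4.3.3, limma 3.58.1 was used to correct intensities for background (normexp, offset 50) and to normalise each array by loess. Weight 0 was given to control spots, spots flagged as outliers were left out, and saturated spots were kept. Spots of a probe were averaged, and different probes of a gene were kept apart, without comparing their levels. Probes were tested where the scanner flagged Cy5 as well above background on the 3 arrays of any source (38520 of 41174 probes). The fit of 15 arrays had 1 mean per source and 10 residual degrees of freedom; resistant and sensitive sources were compared on the 5 source means. Tests were two-sided with Benjamini-Hochberg adjustment, and the steps were tested on simulated data. The number of arrays limits the precision.

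Of the probes, 22072 were named by accession through RefSeq (GRCm38.p6), 700 by a symbol in the files, and 18402 kept the file's name. Promoter windows come from RefSeq, in which all 10 genes matched, and motifs were searched with Python 3.11.15. Pathway and marker genes are represented by their brightest probe. The up to 10 pathway genes with the widest range among those called by the F test were named, as were the 2 genes most like each member whose brightest probe spanned at least 1. The members and lists were chosen with earlier results of these data known. The alternatives were another background correction, centring, scaling, the scanner's ratio, Cy5 alone, filters, 1 probe per gene, slide pack and replicate blocks, and leaving out arrays or sources. Marker levels are quantile-normalised Cy5 intensities.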

Additional observations from a re-analysis of the deposited data

How the results depend on the processing

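Counts of called member probes kept within 1.5 times of the reported ones in most settings. TAF-el4 against TAF-tib48 (5 called) gave 3 with median centring, with scaling between arrays, with the scanner's ratio and with the authors' table, 2 with Cy5 alone and 1 with the slide pack as a block, which also gave 3 in place of 6 for TAF-tib48 against NSF. With 1 probe per gene, and so 10 probes tested, the counts were 4 for TAF-el4 and 5 for TAF-tib48 against TAF-tib6, 4, 5 and 4 for TAF-el4, TAF-tib42 and TAF-tib6 against NSF, and 3 for TAF-el4 against TAF-tib42. The replicate numbers did not pair the arrays (2 of 30 correlations of same-numbered deviations over 0.1). The fit with the number as a replicate block, which takes arrays as units, called 7 of the 14 probes between resistant and sensitive arrays in place of 0, against 28.0% of all probes in that fit, and moved no other count by over 1.5 times. Leaving out 1 array gave 3 to 6 calls for TAF-el4 against TAF-tib48, 5 to 8 for TAF-el4 and 6 to 8 for TAF-tib48 against NSF, 9 to 10 for the F test, and 38 to 41 pathway genes. With scaling between arrays, TAF-tib6 minus NSF reversed to 0.035 in Igfbp6, 0.37 in the Igfbp3 clone probe and 0.30 in Ccn5. With Cy5 alone, Htra3 in TAF-tib48 minus NSF turned from -0.42 to 0.089 (adjusted p = 0.647). The slide packs, 3 in all, were inferred from consecutive slide barcodes in the file headers. They hold NSF with 2 arrays of TAF-el4, and TAF-tib42 with 1 array each of TAF-el4 and TAF-tib48. The last holds TAF-tib6 with 2 arrays of TAF-tib48, so pack and source are partly confounded. NSF, TAF-tib42 and TAF-tib6 share no pack with each other. Nor does NSF share one with TAF-tib48, or TAF-tib6 with TAF-el4. Packs are linked only through the arrays of TAF-el4 and TAF-tib48. The fits within a pack and the clone probe were added after the data were seen. Causes were not tested.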
